A study of Mus musculus with 4 samples.

Results

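The antigens by which mouse haematopoietic stem cells are sorted are products of a small set of genes, and 7 of them are described here: Kit, Ly6a, Cd34, Slamf1, Cd48, Procr and Esam. They were chosen by name, from 22180 genes that had a probe set with exactly 1 gene symbol. Of the 7 genes, 6 had such a probe set, 1 each, and all 6 lay above the floor for dim signals on all 4 arrays. Ly6a, the gene of Sca-1, was not analysed here. RNA from sorted bone marrow cells of 2-month-old mice was hybridised to Affymetrix Mouse Gene ST arrays, 1 per genotype. WT mice were wild type, Fancd2KO mice lacked the Fanconi anaemia DNA repair gene Fancd2, Foxo3aKO mice lacked the forkhead transcription factor gene Foxo3, whose product the labels call Foxo3a, and DKO mice lacked both. The knockout alleles, the number and sex of the mice and the number of cells per array are not stated in the sources used here. Every difference below therefore sets 1 array against another, with no replicate check and no test, and the number of arrays limits the precision.

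Stem cell sorting combines antigens that are present on the stem cell with antigens that appear as it matures. Kit is the receptor for stem cell factor, and with Sca-1 it marks the lineage-negative fraction that holds stem and multipotent progenitor cells. CD34, a sialomucin, is low on long-term stem cells of adult mice and appears on progenitors. CD150, encoded by Slamf1, is present on long-term stem cells, while CD48, its relative in the SLAM family of immune cell receptors, appears on progenitors and on most mature leukocytes. Procr encodes the endothelial protein C receptor and Esam an adhesion molecule of endothelial junctions and platelets, and both antigens mark stem cells as well as endothelium. Here the gate took cells that were positive for c-Kit and Sca-1 and negative for CD34 and for lineage antigens. The labels call the cells SLAM cells, although neither CD150 nor CD48 is listed in the gate. Kit and Cd34 are thus genes of antigens listed in the gate, and Slamf1, Cd48, Procr and Esam are not. Whether CD150 and CD48 also entered the sort is not known. The gate acted on surface protein and the arrays measured RNA.

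Slamf1 and Cd48 lie close together in the SLAM gene cluster of chromosome 1, and Cd34 lies farther along the same chromosome. The following sequences are shown because these 3 genes had the widest spread over the genotypes. Each is the 250 bases before the transcription start in RefSeq annotation of GRCm38.p6, 5′ to 3′ on the plus strand, in lower case, with a match to any of 4 short motifs in capitals.
Slamf1, chr1:171766882-171767131: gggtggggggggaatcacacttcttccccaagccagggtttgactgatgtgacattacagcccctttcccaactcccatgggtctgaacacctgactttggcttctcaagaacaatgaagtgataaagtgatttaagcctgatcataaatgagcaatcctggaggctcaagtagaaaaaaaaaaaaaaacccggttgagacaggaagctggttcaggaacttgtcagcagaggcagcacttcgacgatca
Cd48, chr1:171681742-171681991: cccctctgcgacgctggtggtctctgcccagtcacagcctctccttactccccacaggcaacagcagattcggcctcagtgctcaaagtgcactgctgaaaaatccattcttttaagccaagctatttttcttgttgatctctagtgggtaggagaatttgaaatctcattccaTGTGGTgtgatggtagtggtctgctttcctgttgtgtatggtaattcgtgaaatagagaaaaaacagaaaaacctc
Cd34, chr1:194938571-194938820: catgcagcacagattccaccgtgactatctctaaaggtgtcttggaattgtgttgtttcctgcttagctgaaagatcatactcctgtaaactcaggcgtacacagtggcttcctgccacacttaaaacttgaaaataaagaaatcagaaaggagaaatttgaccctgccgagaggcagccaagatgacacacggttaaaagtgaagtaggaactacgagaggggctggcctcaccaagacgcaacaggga
The motifs were GTAAACA for FOXO factors, AGATAA for GATA factors, TGTGGT for RUNX factors and CGGAAG for ETS factors, on both strands, and no window held more than 1 match. The FOXO word was in 3.17% of 32851 promoter windows of the same length, the GATA word in 9.99%, the RUNX word in 14.0% and the ETS word in 13.6%. The Cd48 window held the RUNX word, 76 bases before the start. The Slamf1 and Cd34 windows held 0 of these words. RefSeq windows were at hand for 5 of the 7 genes, and beside these 3 the Procr window held the ETS word 85 bases before the start, and both Kit windows, which start 4 bases apart, held 0. A match is a run of letters in the window and was not tested for binding.

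The arrays were alike in overall signal. Median signals over all probe sets ran from 5.27 to 5.34 log2, and Pearson correlations between arrays from 0.96 to 0.97. The targeted Fancd2 gene read 6.08 log2 in Fancd2KO and 5.84 in DKO, against 6.56 in WT and 6.67 in Foxo3aKO. Foxo3 read 6.64 in Foxo3aKO and 6.51 in DKO, against 6.62 in WT and 6.72 in Fancd2KO. It was thus at the WT level in the array labelled Foxo3aKO, the position of its probes against the deletion was not known, and what is said below of Foxo3a loss rests on the labels. Of 27 stem cell genes outside the antigen list, 24 lay above the floor on every array. Among stem cell transcription factors, named after their values were seen, Hlf read from 8.51 to 9.17, while Hoxb5 read from 5.93 to 6.58 and Nkx2-3 from 5.45 to 6.45, just under the floor in DKO. Neutrophil genes, of cells that a lineage gate should remove, were bright too. S100a8, a calcium-binding protein of neutrophils, ranked 2 or 3 of all genes on every array, and all 18 measured neutrophil markers lay above the floor on every array. The part of such cells in the values of the antigen genes was not tested. In bulk RNA, fewer cells of a type and less RNA per cell cannot be told apart.

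Kit and Cd34 were the brightest of the 6 genes and Esam the dimmest. A rank here orders probe signals, not transcripts, because probes differ in how well they bind. The Kit probe set (17438272) read 10.67 log2 in WT and, in the knockouts, 10.41 (Fancd2KO), 10.57 (Foxo3aKO) and 10.43 (DKO). These signals ranked 236, 298, 261 and 278 of 22180 genes, inside the top 1.34% on every array. The Cd34 probe set (17221014) read 10.79 in WT and 10.28, 9.67 and 10.36 in Fancd2KO, Foxo3aKO and DKO. It ranked 218, 329, 625 and 299, so the gene of an antigen for which the cells were sorted as negative stood in the top 2.82% of genes on every array. Cd34 outranked Kit in WT, and in the other arrays Kit outranked Cd34.

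The 4 genes whose antigens are not listed in the gate lay in the top 31.8% of genes on every array. The Cd48 probe set (17219397) read 8.17 log2 in WT and 7.50, 8.13 and 8.68 in Fancd2KO, Foxo3aKO and DKO, which were ranks 2935, 4757, 2896 and 1697. The Procr probe set (17378440) read 7.89, 8.03, 7.80 and 8.05 on the same arrays, ranks 3635, 3213, 3714 and 3091. The Slamf1 probe set (17219407) read 7.25, 8.36, 7.51 and 7.81, ranks 5715, 2436, 4589 and 3760. Slamf1 was thus dimmest in WT and brightest in Fancd2KO, and Cd48 was dimmest in Fancd2KO and brightest in DKO. The Esam probe set (17516074) read 7.0, 7.35, 6.76 and 7.29, ranks 6484, 5257, 7043 and 5313. Esam and Procr were both lowest in Foxo3aKO.

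**Figure D1:**
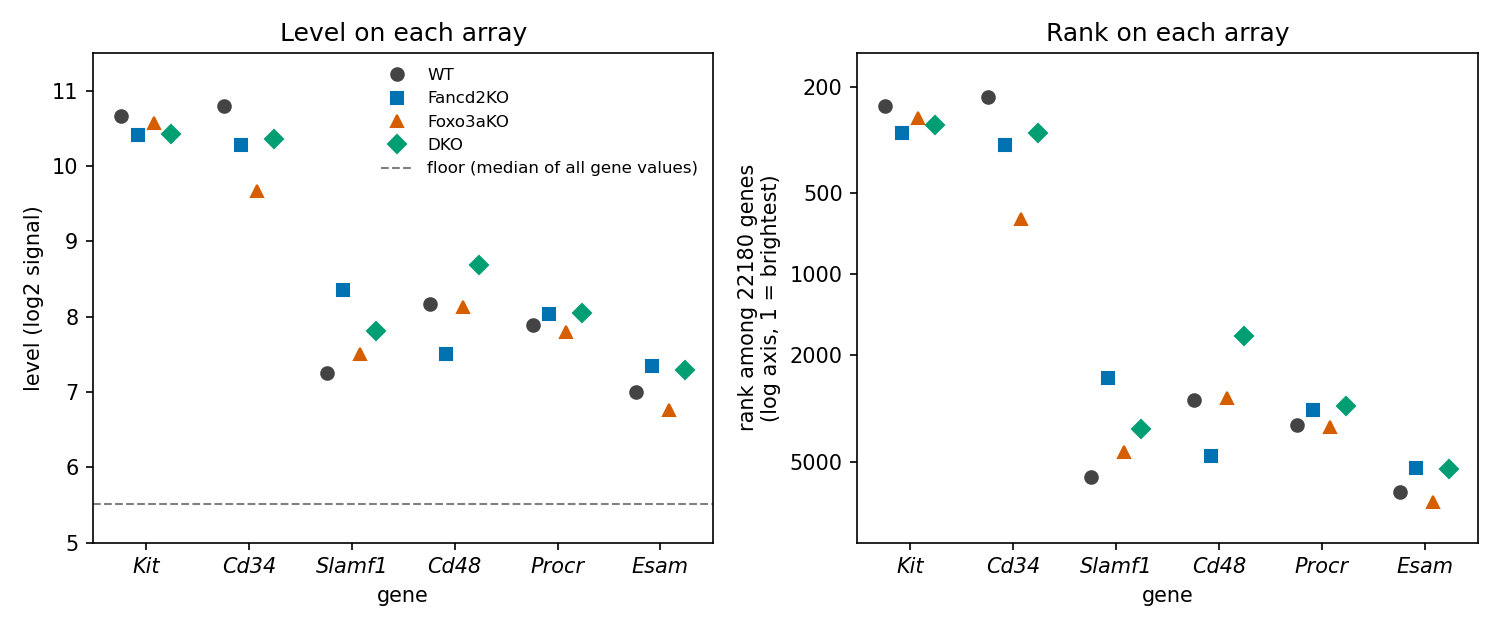
Log2 signal (left) and rank among 22180 genes (right, log axis, 1 is the brightest) of the 6 measured genes, with 1 point per array and the floor of 5.51 log2 as a dashed line. Kit and Cd34 sit at 9.67 or above on all 4 arrays, and the Foxo3aKO point of Cd34, at 9.67, is apart from the other Cd34 points.

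The genes differed in the width of their span. Over the 4 arrays Cd48 spanned 1.18 log2, Cd34 1.12 and Slamf1 1.11, wider than 94.3%, 93.6% and 93.4% of the 12041 genes above the floor. Esam spanned 0.59, wider than 67.4% of genes. Kit spanned 0.26 and Procr 0.24, both below the median span of 0.46. The error of such values can be gauged only from 527 other genes with 2 probe sets above the floor, where both probe sets read the same RNA. Their disagreement about a difference from WT had an SD of 0.46 log2 for Fancd2KO, 0.44 for Foxo3aKO and 0.48 for DKO, and stayed below 0.91, 0.90 and 0.90 in 95% of the genes. This measures probe sets and leaves out the spread between mice.

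In the array labelled Fancd2KO, Slamf1 stood higher than in WT and Cd48 lower. Slamf1 was 2.16-fold above WT (1.11 log2), a difference larger than in 98.7% of genes and 2.44 times the SD of probe set disagreement. It was the 1 member of 6 at least 2-fold apart, where 3.03% of all genes above the floor were. Cd48 was 1.58-fold below WT (-0.66) and Cd34 1.42-fold below (-0.51), both under 2-fold and under the 95% bound of probe set disagreement. Kit differed by -0.26, Procr by 0.15 and Esam by 0.35. The gap between Slamf1 and Cd48 was 1.78 log2 wider in the direction of Slamf1 than in WT. Beside these values, 16 of 18 neutrophil markers and 14 of 19 monocyte and macrophage markers stood below WT in the Fancd2KO array. The same held for 6245 of the 12041 genes above the floor. The summed linear signal of the neutrophil list was 46904 in WT and 38871 in Fancd2KO, and that of the monocyte list 9273 and 7073. Cd48 is known from such cells, and their part in its lower signal was not tested.

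In the array labelled Foxo3aKO, Cd34 was the member that stood apart. It was 2.17-fold below WT (-1.12 log2), with 0.789% of genes lower still, and 2.55 times the SD of probe set disagreement. It was again 1 of 6 members at 2-fold, beside 3.11% of all genes above the floor. Esam differed by -0.24, Kit by -0.10, Procr by -0.08 and Cd48 by -0.04, all smaller than the SD of disagreement, and Slamf1 by 0.26. Of 27 stem cell genes outside the antigen list, 10 stood above and 17 below WT in the same array, with a median of -0.16, and the 1 at 2-fold was the immediate early gene Egr1, which was higher (1.67). Of the 12041 genes above the floor, 5366 stood above WT in this array. Neutrophil markers did in 17 of 18 cases and monocyte and macrophage markers in 18 of 19. Summed signals of these lists were 61623 and 13309, against 46904 and 9273 in WT. Their part in the lower Cd34 signal was not tested.

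In the double knockout 0 of 6 members were 2-fold from WT, beside 3.09% of all genes above the floor. Slamf1 was 1.48-fold higher (0.57 log2), Cd48 1.43-fold higher (0.52), Esam 0.29 higher and Procr 0.16 higher. Cd34 was 1.35-fold lower (-0.43) and Kit differed by -0.24. Slamf1 lay above WT in all 3 knockouts and Kit and Cd34 below WT in all 3, comparisons that share the WT array. A dimmer probe set, listed under both Cd34 and a predicted gene, stood above WT in Fancd2KO (6.66 against 6.43 log2). The gap between Slamf1 and Cd48 was 0.05 log2 from its WT value. Beside these values, the 19 monocyte and macrophage markers stood a median of 0.96 log2 above WT, 9 of 19 at least 2-fold higher and 1 lower, led by the Fc receptor Fcgr4 (4.08), Cd300e (3.65), the growth factor receptor Csf1r (1.93) and Fcgr1 (1.82). Cd300e and Fcgr1 were under the floor in WT, and measured from the floor they were 3.62 and 1.07 higher. The summed signal of the monocyte list was 12513 in DKO and 9273 in WT. Neutrophil markers stood below WT in 16 of 18 cases, as did 6434 of the 12041 genes above the floor. Their summed signal was 37872 in DKO and 46904 in WT. The part of either list in the Cd48 signal was not tested.

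**Figure D2:**
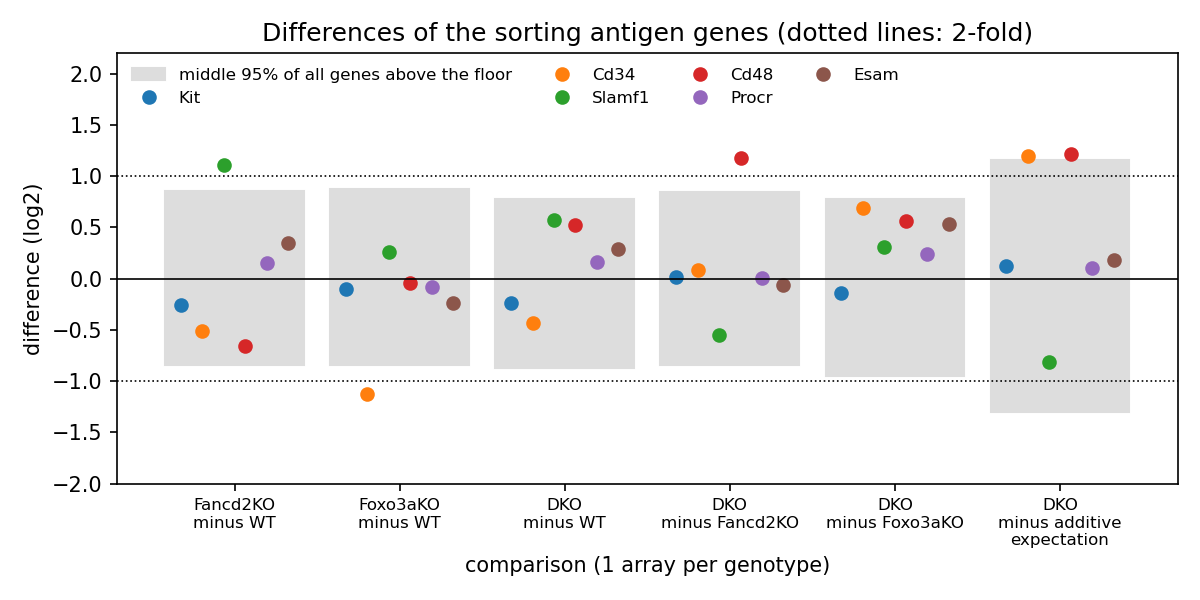
Log2 differences of the 6 measured genes in 6 comparisons, each between single arrays or against the additive expectation, with grey boxes for the middle 95% of the 12041 genes above the floor. Slamf1 in Fancd2KO (1.11), Cd34 in Foxo3aKO (-1.12), Cd48 in DKO against Fancd2KO (1.18) and Cd34 and Cd48 against the expectation (1.20 and 1.22) lie outside the boxes.

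The design also shows each loss on the background of the other. Between DKO and Fancd2KO, which differ in Foxo3a, Cd48 was 2.27-fold higher in DKO (1.18 log2), above 99.0% of genes, and was the 1 member at 2-fold where 3.01% of genes above the floor were. Slamf1 was 1.46-fold lower (-0.55), and Kit, Cd34, Procr and Esam differed by 0.08 or less in size. Between DKO and Foxo3aKO, which differ in Fancd2, 0 members were at 2-fold, beside 3.36% of genes. Of the 6, 5 stood higher in DKO, as did 6497 of the 12041 genes above the floor. Cd34 was 1.62-fold higher (0.69), Cd48 1.47-fold (0.56) and Esam 1.45-fold (0.53), and Slamf1 and Procr differed by 0.31 and 0.24. Kit differed by -0.14.

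If both losses added up on the log2 scale, DKO would equal Fancd2KO plus Foxo3aKO minus WT. Cd34 was expected at 9.16 and read 10.36 in DKO, 1.20 log2 above the expectation. Cd48 was expected at 7.46 and read 8.68, 1.22 above. These were 2 of 6 members at 2-fold, beside 8.42% of all genes above the floor, and both lay under the bound of 1.35 within which 95% of probe set pairs differed for this quantity. Slamf1 was expected at 8.62 and read 7.81, a departure of -0.81. Kit (0.12), Procr (0.10) and Esam (0.18) lay close to the sum. The departure adds the errors of all 4 arrays, and it shares arrays with every other comparison.

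Slamf1 and Cd48 were then read beside the whole SLAM family, receptors that bind one another across immune cells. Of 9 measured members, Slamf1 alone stood above WT in the Fancd2KO array, and 8 stood below it, beside 11085 of all 22180 measured genes. Of these 8, Cd244a, Slamf6 and Slamf8 were under the floor on both arrays. The family median was -0.35 log2, or -0.16 once signals under the floor were set to it, and 1 member was 2-fold apart, where 2.16% of all 22180 measured genes were. In chromosomal order the differences were -0.21 for Cd244a, -0.16 for Ly9, -0.53 for Slamf7, -0.66 for Cd48, 1.11 for Slamf1, -0.58 for Cd84 and -0.35 for Slamf6, with Slamf9 (-0.62) and Slamf8 (-0.25) farther along. Slamf1 thus differed in sign from the nearest measured SLAM family genes on both sides in this array. In Foxo3aKO 0 of 9 were 2-fold apart, beside 2.17% of all measured genes, and Slamf9 (-0.73, under the floor in Foxo3aKO) and Cd84 (0.36) differed most.

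In DKO 2 of the 9 SLAM family members were at least 2-fold higher and 0 lower, beside 2.17% of all measured genes in either direction. Cd244a, which encodes the CD48 receptor 2B4, a SLAM antigen used to separate progenitors, read 7.60 log2 in DKO, against 5.49 in WT, 5.28 in Fancd2KO and 5.30 in Foxo3aKO. It was under the floor of 5.51 on every array but DKO, where it was 2.12 above WT. Slamf9 was 1.67 above WT. Cd244a and Cd48, receptor and ligand, were thus both brightest in DKO. The monocyte markers had median differences of 0.96 in DKO, 0.56 in Foxo3aKO and -0.36 in Fancd2KO. The summed signal of that list was 12513 in DKO and 13309 in Foxo3aKO. The part of such cells in the Cd244a and Cd48 signals was not tested.

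**Figure D3:**
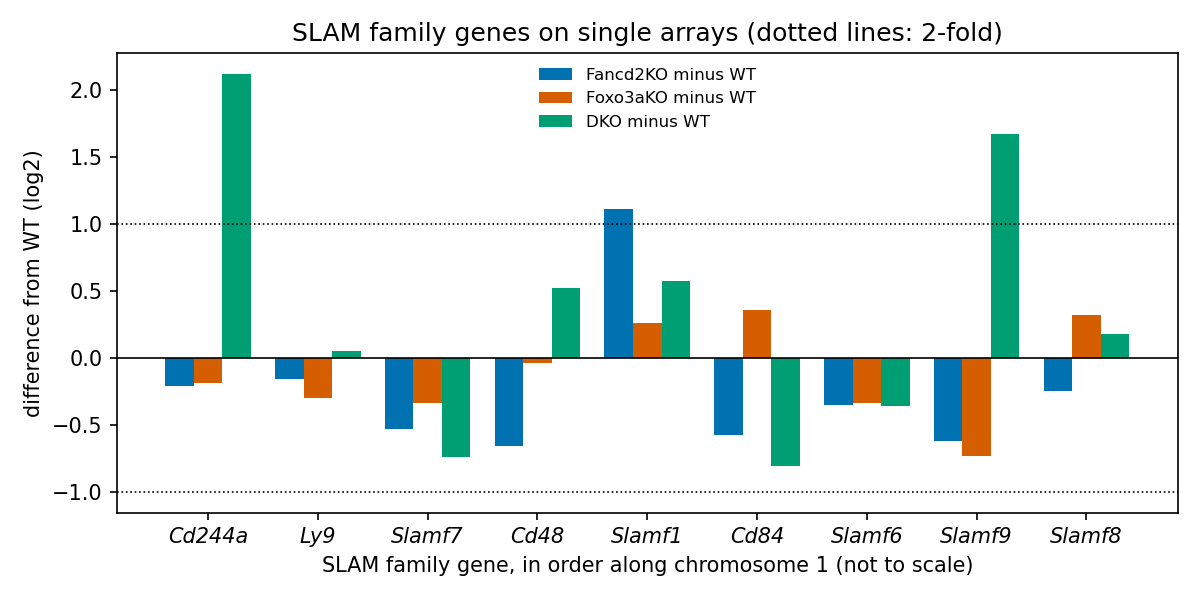
Log2 difference from WT of 9 SLAM family genes in their order along chromosome 1 (spacing not to scale), with 1 bar per knockout array. In the Fancd2KO array Slamf1 is the single bar above 0, with 3 of the other genes under the floor there and in WT, and in the DKO array Cd244a (2.12) and Slamf9 (1.67) pass the 2-fold line.

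A list of 25 other measured antigens for sorting stem and progenitor cells gave a context for the members. Medians of the list were -0.05 in Fancd2KO, 0.00 in Foxo3aKO and -0.24 in DKO, where all measured genes had medians of 0.00, -0.01 and 0.02. Of genes above the floor, as all 25 were on at least 1 array, 3.03%, 3.11% and 3.09% were at least 2-fold from WT in the same arrays. Flt3, the cytokine receptor that rises as stem cells become lymphoid-primed progenitors, read 8.97 log2 in WT and 7.34, 7.37 and 6.67 in Fancd2KO, Foxo3aKO and DKO. In Fancd2KO it was the 1 of 25 at least 2-fold apart in either direction (-1.63), a count near the share of 3.03%. In Foxo3aKO it was the 1 at least 2-fold lower (-1.60), and 1 other gene was higher. Flt3 was lowest in DKO (-2.30). All 3 knockout arrays lay below WT for this progenitor antigen, while Cd48, also a progenitor antigen, differed by -0.66, -0.04 and 0.52.

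Other antigens of the list stood higher in the knockouts. Neo1, the netrin receptor neogenin, read 5.32 in WT and 6.24, 6.65 and 7.14 in Fancd2KO, Foxo3aKO and DKO, and was 2-fold above WT in Foxo3aKO (1.33) and DKO (1.81). Its WT signal was under the floor, and measured from the floor it was 1.14 and 1.63 higher. In DKO 4 of 25 were at least 2-fold higher and 2 lower, beside 3.09% of all genes above the floor in either direction. The higher genes were Cd244a, Neo1, the inhibitory Fc receptor Fcgr2b (1.36) and Prom1 (1.04), which encodes CD133. The lower genes were Flt3 and the angiopoietin receptor Tek (-1.25). Prom1 and Tek were named after their values were seen. Thy1, Itga2b, Itga6, Cd9, Cd27, Cxcr4 and the remaining genes of the list were under 2-fold in every knockout.

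**Figure D4:**
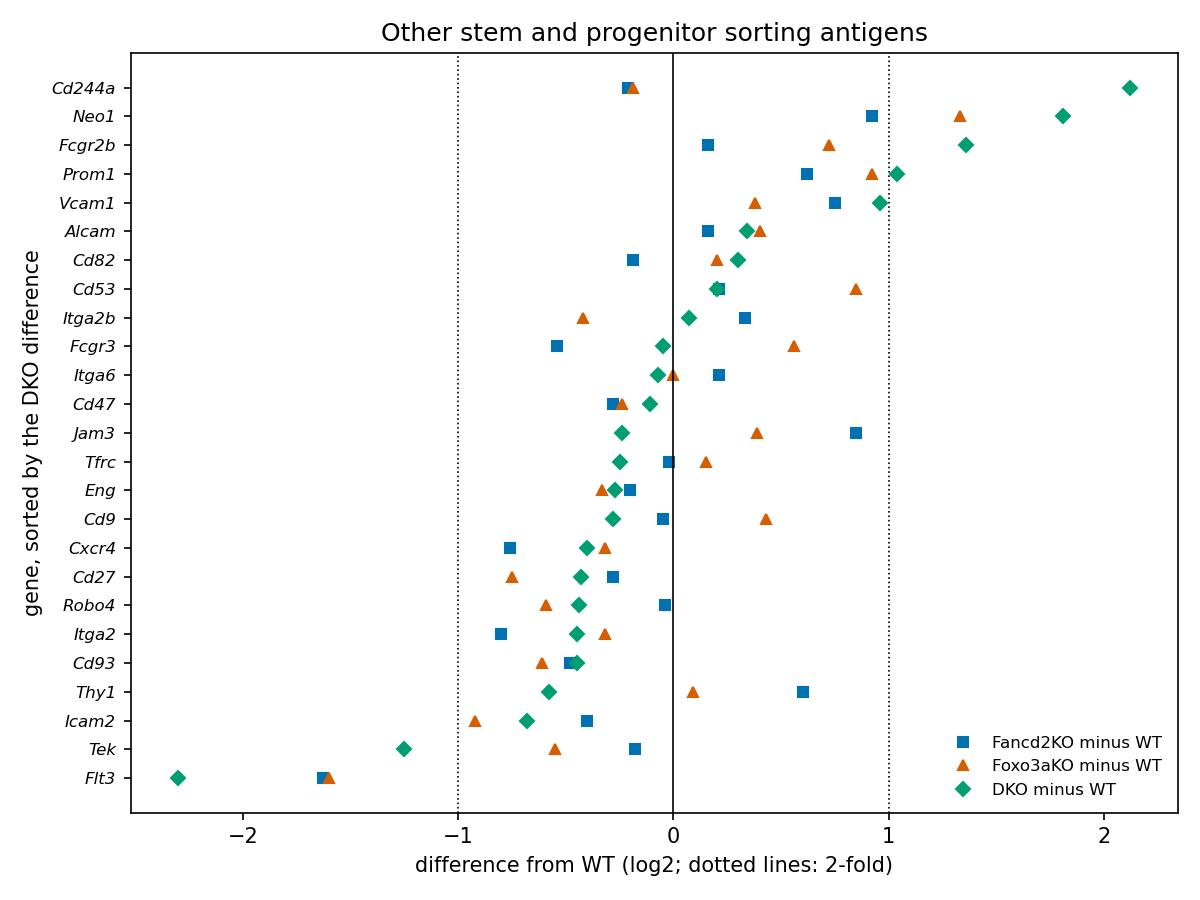
Log2 difference from WT of 25 other antigen genes, sorted by the DKO value, with 1 point per knockout array and dotted lines at 2-fold. Flt3 lies beyond the lower line in all 3 knockouts (-1.63, -1.60 and -2.30), and Cd244a lies beyond the upper line in DKO alone (2.12).

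Antigens of the lineage cocktail and of the Ly6 family were examined because the gate rests on them. Of 15 measured lineage antigens, 1 was at least 2-fold higher and 1 lower than WT in Fancd2KO, 2 higher and 0 lower in Foxo3aKO, and 0 higher and 2 lower in DKO, beside 2.16%, 2.17% and 2.17% of all measured genes in either direction. Ly6g, the neutrophil antigen Gr-1, read 9.75 in WT and 8.40, 10.47 and 7.96 in Fancd2KO, Foxo3aKO and DKO. Cd3d, a gene of the T cell receptor complex, was 2.24 higher in Foxo3aKO. The others past 2-fold rested on dim signals. Cd3e (1.06 in Fancd2KO) was under the floor in WT, Il7r (-1.31 in DKO) was under it in DKO, and Cd3g (1.20 in Foxo3aKO) was under it on all arrays. Measured from the floor, Cd3e differed by 0.31 and Il7r by -0.69, so that 1 lineage antigen in each knockout was left past 2-fold. In the Ly6 family, small surface proteins anchored by a lipid and including Sca-1, 14 genes were measured. Ly6g in Fancd2KO and DKO and the lymphoid gene Ly6d in DKO (-1.59) passed 2-fold, each lower, which made 1, 0 and 2 of 14 in Fancd2KO, Foxo3aKO and DKO beside the same shares of all measured genes. A probe set listed for Ly6a2 alone, which RefSeq holds as a gene of chromosome 15 separate from Ly6a, read 10.40, 9.87, 11.10 and 9.78 log2 in WT, Fancd2KO, Foxo3aKO and DKO. It was looked up after the data were seen. Whether its probes also read Ly6a is not known, since close Ly6 copies can share probes, and its values are not taken as those of Ly6a.

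Markers of the other cell types that carry these antigens were read beside them. For Kit, also an antigen of mast cells, the mast cell protease genes Mcpt1, Mcpt4, Tpsb2 and Tpsab1 were under the floor on every array. Cpa3, a protease gene of mast cells and basophils, read 7.49, 6.36, 7.76 and 7.21 log2 in WT, Fancd2KO, Foxo3aKO and DKO. All 17 markers of mast cells, basophils and eosinophils had medians of -0.90, -0.32 and -0.60 in the knockouts, or -0.27, 0.00 and -0.27 once signals under the floor were set to it. The lowest differences were those of the eosinophil granule genes Epx (-2.71 in Fancd2KO) and Prg3 (-3.53 in DKO). For Procr and Esam, also genes of endothelium, 20 endothelial markers had medians of 0.16, 0.24 and 0.36, with 13 of 20 under the floor in Foxo3aKO and 14 on each of the other arrays. Over those above the floor on any array the medians were -0.02, -0.06 and -0.01. Cdh5, the cadherin of endothelial junctions, read 4.66, 5.12, 4.64 and 5.38, under the floor on every array. For Cd34, 19 markers of multipotent progenitors had medians of -0.28, 0.10 and -0.15. At 2-fold, 0, 1 and 1 were higher and 3, 3 and 6 lower, beside 2.16%, 2.17% and 2.17% of all measured genes either way. Measured from the floor, 4 were lower in DKO. Dntt, the lymphoid enzyme of their list, differed by -1.30, -2.17 and -3.12. Irf8 was 1.25 higher in Foxo3aKO and Elane 1.01 higher in DKO. Of 14 megakaryocyte markers, with medians of 0.09, -0.42 and -0.09, 2, 1 and 1 were 2-fold higher and 2, 3 and 1 lower. Of all measured genes, 2.16%, 2.17% and 2.17% were 2-fold apart either way. Measured from the floor, 1 marker was lower in each knockout, and the medians were 0.11, 0.00 and 0.00. The platelet chemokine gene Ppbp differed most, by -3.11, -3.29 and -3.39, reaching signals under the floor in Foxo3aKO and DKO. Selp was 1.55 higher in Fancd2KO and Thbs1 2.36 higher in Foxo3aKO. Vwf, shared with endothelium and platelets, differed by 1.08, 0.35 and 1.02. How far any of these cells enter the antigen signals was not tested.

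For each of the 3 genes with a span of at least 1 log2, the 3 genes above the floor with the most similar shape over the 4 arrays were found, by the root mean square gap after each profile was set to a mean of 0. For Cd34 they were Sf3b5 (gap 0.016 log2), Chtf8 (0.057) and Cd209a (0.060). For Slamf1 they were F2r (0.061), Insl6 (0.067) and Odc1 (0.074). For Cd48 they were Sh3bp2 (0.051), Pot1b (0.057) and Cd40 (0.060). F2r, which encodes a thrombin receptor, read 8.63, 9.67, 8.72 and 9.14 in WT, Fancd2KO, Foxo3aKO and DKO, the same order as Slamf1. Sf3b5, a splicing factor subunit, read 9.55 in WT and, lowest, 8.41 in Foxo3aKO. Predicted genes, clones, pseudogenes, small RNAs, olfactory and vomeronasal receptors and antigen receptor segments were left out of the search. The shapes rest on 4 points and were sought among the rest of the 12041 genes, and nothing is read from them.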

How the data were processed

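The series holds 4 Affymetrix arrays, 1 per genotype, and 1 deposited table of 41345 probe sets. The deposited values range as log2 expression does and were read as such. The authors made them with Affymetrix Expression Console, as the submitters' processing notes list it, and its version, summarisation and normalisation are not given in the sources used here. All 4 columns were used.

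Platform annotation gave 23521 probe sets 1 gene symbol, 1814 several and 16010 none. Those with 1 symbol were kept, and where a gene had several the brightest by mean was taken. The floor was the median of all gene values, 5.51 log2; 12041 genes reached it on at least 1 array. Differences were subtracted on the log2 scale and counted from 2-fold (1 log2). With 1 array per genotype no test was run. The subtraction and counting were tested on simulated data.

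The members, lists and thresholds were chosen with earlier results of these data known. The rule for naming took all members, Fancd2, Foxo3 and the nearest profiles of members spanning at least 1 log2. It also took up to 4 genes per list at 2-fold in each knockout (otherwise up to 2). Not every list gene of this rule is named above, and the erythroid, B cell and T and NK cell lists are not described. Some markers outside the rule are named too, among them S100a8, Mcpt1, Tpsb2, Tpsab1, Cpa3 and Cdh5. List medians cover all measured genes of a list. Alternatives were quantile normalisation, median centring and cyclic loess (limma 3.58.1, R 4.3.3), mean of probe sets, dim signals raised to the floor, no floor and a 1.5-fold threshold. Python 3.11.15 and pandas 2.3.3 were used.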

Additional observations from a re-analysis of the deposited data

Results flagged for a closer look

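The effect of a loss had opposite signs on both backgrounds for several members, each seen in single arrays, and no difference between backgrounds was tested. Fancd2 loss went with Cd34 differences of -0.51 log2 against WT and 0.69 against Foxo3aKO, and with Cd48 differences of -0.66 and 0.56. Foxo3a loss went with Cd34 differences of -1.12 against WT and 0.08 against Fancd2KO, and with Cd48 differences of -0.04 and 1.18. For Slamf1 the values of Foxo3a loss were 0.26 and -0.55. Kit (-0.10 and 0.02) and Procr (-0.08 and 0.01) also had opposite signs for Foxo3a loss. The SD of probe set disagreement was 0.44 to 0.50 log2, far above both values of Kit and Procr. It was also above 1 of the 2 values of Foxo3a loss for Cd34 (0.08), Cd48 (-0.04) and Slamf1 (0.26). The values of Fancd2 loss for Cd34 and Cd48 passed that SD. They lay under 0.91 (against WT) and 0.95 (against Foxo3aKO), the bounds that held 95% of probe set pairs. None of these opposite signs is thus settled.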

How the results depend on the processing

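Over quantile normalisation, median centring, cyclic loess, the mean of probe sets and dim signals raised to the floor, all 180 recomputed member differences stayed within the SD of probe set disagreement, and the largest move was 0.08 log2. The 5 differences past 2-fold stayed past it under these settings: Slamf1 in Fancd2KO from 1.11 to 1.12, Cd34 in Foxo3aKO from -1.18 to -1.10, Cd48 in DKO against Fancd2KO from 1.14 to 1.24, and the departures of Cd34 (1.20 to 1.24) and Cd48 (1.22 to 1.27). Each member had 1 probe set and lay above the floor on all 4 arrays. Averaging probe sets and raising dim signals therefore could not move its differences, and only the changes of normalisation could. At 1.5-fold, 2 members were counted in Fancd2KO against WT (11.8% of genes above the floor) and 1 in DKO against Foxo3aKO (12.3%). For the departure from the additive expectation 3 were counted (24.9%). These counts rose by the construction of a lower threshold. Medians of 7 of 252 recomputed list values changed sign, among them the endothelial median in each knockout over genes above the floor, a setting chosen after seeing the data. The lineage antigen median in Foxo3aKO was 0.46 as deposited and 0.00 once dim signals were raised to the floor, and the mast cell, basophil and eosinophil median in Fancd2KO was -0.27 in place of -0.90. In DKO the latter was -1.48 over genes above the floor, in place of -0.60. No paired analysis was possible because each genotype had 1 array. For the same reason no array could be left out.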

Other observations

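A second probe set (17231281) is listed under both Cd34 and a predicted gene and was left out by the rule of 1 symbol. It read 6.43 log2 in WT and 6.66, 5.99 and 6.31 in Fancd2KO, Foxo3aKO and DKO, dimmer than the Cd34 probe set. It was lowest in Foxo3aKO as that probe set was, but by less than 2-fold, and it stood above WT in Fancd2KO, where the Cd34 probe set stood below.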
